A study of Mus musculus with 3 samples.

Results

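The transcripts of 9 genes of bone morphogenetic protein (BMP) and activin signalling were followed across plates of 3 stiffness levels. They were chosen by name as the ligand genes Bmp2, Bmp4 and Inhba, the antagonist genes Grem1 and Fst, the inhibitory signal transducer Smad6 and the target genes Id1, Id2 and Id3. All 9 were among the 56833 genes of the table. The cells were sorted for the red reporter tdTomato from the ankle synovium, the membrane that lines the joint, of mice of genotype Efhd1CreER; Ai9. In these mice an inducible Cre recombinase driven by Efhd1 switches on the Ai9 reporter, and the labels give the cell type as telocytes, interstitial cells with long processes. All 3 cultures carried this genotype and grew for 24 h on collagen-coated plates with a stiffness of 0.2, 8 or 64 kPa, named soft, intermediate and stiff here. There was 1 library per level, so differences between stiffness levels cannot be told apart from differences between cultures, and no test between levels was possible. Animal age and the number of animals behind each library were not given in the sources used here.

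BMP ligands bind type I and type II receptors on the cell surface, which phosphorylate SMAD1, SMAD5 and SMAD9. With SMAD4 these enter the nucleus and induce feedback and target genes, among them Smad6 and the Id genes. Activin A, a dimer of the subunit encoded by Inhba, acts through SMAD2 and SMAD3. Gremlin 1 and follistatin, the products of Grem1 and Fst, are secreted proteins that bind ligands outside the cell, gremlin 1 chiefly BMP2 and BMP4 and follistatin chiefly activins. Id proteins lack a DNA-binding region and hold E proteins, a class of transcription factors, away from DNA. In the joint, BMP ligands and their antagonists pattern cartilage and bone, and synovial fibroblasts are a known source of activin A.

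Sequencing depth was 25487064 reads on soft, 28081600 on intermediate and 26474862 on stiff plates. Values below are the authors' normalized counts, in which each library is divided by its own size factor, and 1 read was worth 1.03, 0.943 and 1.03 of them. Of 5 telocyte markers, Pdgfra stood at 5118 to 6298 normalized counts and Cd34 and Foxl1 at 186 to 318, while Gli1 stood at 8.20 to 11.3 and Efhd1 had 10, 5 and 3 reads (soft, intermediate, stiff). The summed level of 8 fibroblast markers was 223666, 269949 and 324355, in the same order, with Col1a1 alone at 78648, 110715 and 151834. By sign alone, 5 of the 8 had a log2 ratio of stiff to soft above 0 and 3 below it, the latter being Dcn (-0.44), Lum (-0.36) and Pdgfra (-0.20). Macrophage markers were also present: all 12 had a stiff to soft log2 ratio above 0, 10 of them 0.5 or more, and their sum was 29483, 36279 and 63317. Lymphocyte markers (5 genes) had no read, and each of 8 endothelial markers stayed below 50 in each library, with Cldn5 at 0. Of 6 mural cell markers 3 stayed below 50 and Cspg4 was the highest, at 1642 to 2496, and 4 Schwann cell markers summed to 191, 175 and 127. In bulk RNA, fewer cells of a type and less RNA per cell cannot be told apart.

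RefSeq upstream sequences (build GRCm38.p6) were matched for 6 of the 9 genes, all but Bmp2, Fst and Id1. The 250 bases before the start site are printed for 3 of them: Id2 and Id3, targets that stood on opposite sides in the stiff library, and Grem1, which had a GC-rich SMAD motif. Capitals mark GGCGCC, a palindrome bound by SMAD1 and SMAD5, and GTCT or its reverse complement AGAC, bound by SMAD4. The regions are chr12:25096093-25096342 on the minus strand, chr4:136143572-136143821 on the plus strand and chr2:113758649-113758898 on the minus strand of GRCm38.p6.
Id2: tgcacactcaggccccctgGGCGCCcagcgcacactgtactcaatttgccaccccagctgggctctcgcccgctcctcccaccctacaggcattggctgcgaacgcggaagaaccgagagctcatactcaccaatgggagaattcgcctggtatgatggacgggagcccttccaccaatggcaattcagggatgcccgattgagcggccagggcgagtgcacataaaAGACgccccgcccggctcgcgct
Id3: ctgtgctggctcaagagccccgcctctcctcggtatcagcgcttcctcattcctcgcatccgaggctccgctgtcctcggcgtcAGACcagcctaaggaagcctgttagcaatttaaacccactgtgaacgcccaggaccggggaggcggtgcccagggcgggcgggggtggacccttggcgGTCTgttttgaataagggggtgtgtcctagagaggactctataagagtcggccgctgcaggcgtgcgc
Grem1: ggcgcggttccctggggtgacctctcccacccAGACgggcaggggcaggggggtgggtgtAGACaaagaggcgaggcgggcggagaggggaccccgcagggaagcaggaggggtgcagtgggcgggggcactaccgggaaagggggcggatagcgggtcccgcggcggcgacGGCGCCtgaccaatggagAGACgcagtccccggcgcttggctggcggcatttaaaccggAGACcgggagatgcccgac
Over all 32851 windows of this length in the table, 9.59% held GGCGCC and 82.9% held GTCT on either strand. GGCGCC was found once before Id2, from position -231 relative to the start site, once before Grem1, from position -78, and not in the windows of Id3, Smad6, Inhba or Bmp4. The GTCT motif occurred 4 times before Grem1, 2 times before Id3 and once before each of Id2, Smad6, Inhba and Bmp4, against a median of 2 over all windows. GTCTAGAC, which is GTCT joined to its own reverse complement and so overlaps that motif, was in 0.167% of all windows and in none of the 6. A match describes letters in the window and is not a measured binding site, and a link between motifs and ratios was not tested.

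Among the 9 genes, Fst, Bmp2 and Id1 were lower on stiff than on soft plates, and none was higher by the same margin. A gene was counted as higher or lower when its log2 ratio, computed with 1 added to each value, reached 0.5 and its normalized count averaged 50 or more over the libraries, which 8 of the 9 met. Bmp4, at a mean of 33.8, did not. By this rule 3 of 8 genes were lower in the stiff than in the soft library, where 3.77% of 11873 genes were lower, and 0 of 8 were higher, where 11.8% of genes were (15.6% in either direction). With the trend of the ratios with transcript length and GC content subtracted, 2 of 8 were lower and 1 was higher, where 447 of 11630 genes were lower and 941 higher (1388 in all). In the same comparison 10 of 12 macrophage markers had a ratio of 0.5 or more, among them Aif1, whose mean was under 50. The other two, Cd14 (0.31) and Fcgr1 (0.48), were short of it, and the part of these markers in these differences was not tested. Between stiff and intermediate, 3 of 8 (Bmp2, Fst and Grem1) were lower, where 3.42% of genes were (8.84% in either direction). Between intermediate and soft 0 of 8 passed in either direction, where 4.6% of genes did. The median log2 ratio of the 8 genes was -0.36 for stiff to soft, 0.085 for intermediate to soft and -0.32 for stiff to intermediate, and that of all genes was 0.0049, 0.012 and 0.0061. The comparisons share libraries and are not independent of each other. The 9 genes were chosen with earlier results of these data known, so these contrasts with all genes do not measure enrichment.

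**Figure D1:**
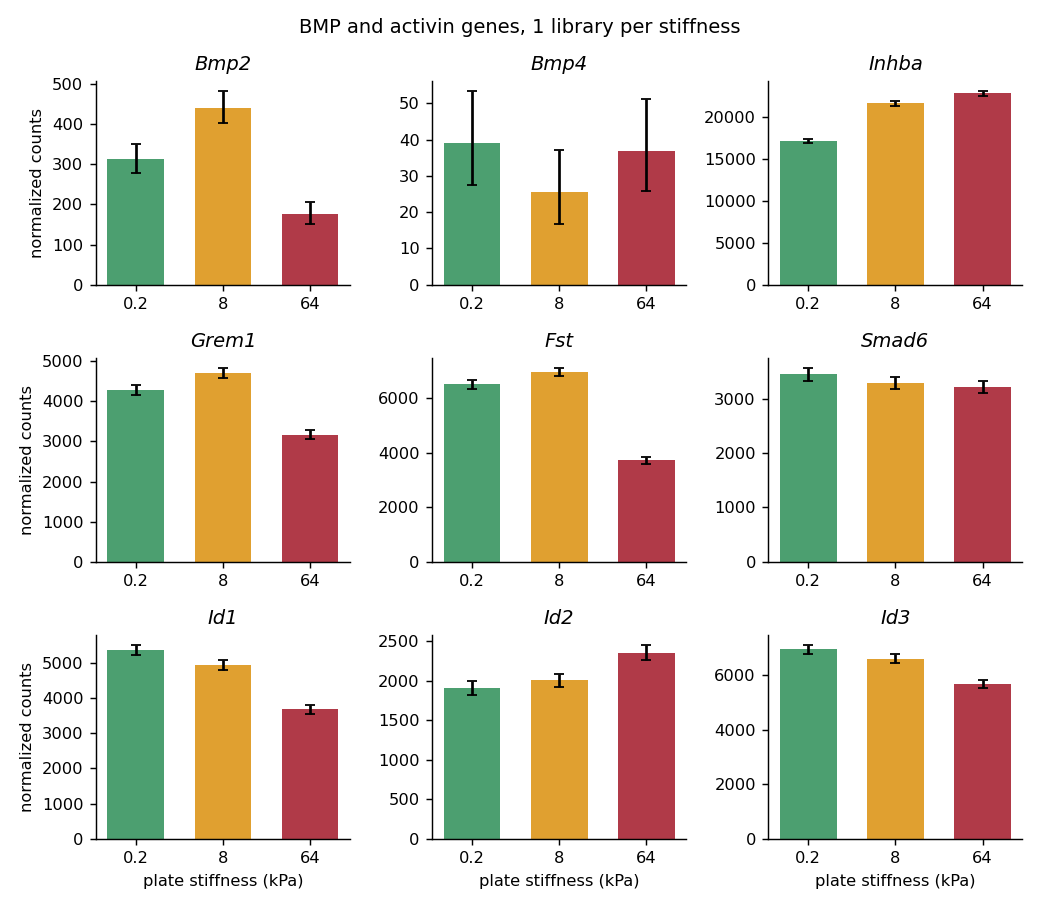
Normalized counts (vertical axes, each starting at 0) of the 9 genes by plate stiffness in kPa, with 1 library per bar and exact 95% Poisson intervals, which cover counting error only. Fst, Grem1 and Bmp2 were highest at 8 kPa and lowest at 64 kPa, while Inhba and Id2 were highest at 64 kPa.

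Each interval in parentheses after a ratio is a 95% Clopper-Pearson (exact binomial) interval for how the reads of a gene divide between a pair of libraries, on the log2 scale. Such intervals hold counting error alone, because PCR copies are not separate molecules and culture-to-culture variation was not measured.

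Bmp2, the gene of a ligand that induces bone and cartilage, is on the plus strand of chromosome 2 (GRCm39, 133394079 to 133404816), with 3 exons in its canonical transcript. Its normalized count was 314 on soft, 442 on intermediate and 177 on stiff plates. Bmp2 thus peaked on the intermediate plate and was lowest on the stiff plate. The log2 ratio was 0.49 for intermediate to soft (0.28 to 0.71), just under the threshold, and -0.82 for stiff to soft (-1.10 to -0.55). Its largest difference lay between stiff and intermediate, at -1.31 (-1.58 to -1.06), a 2.48-fold lower level. Bmp2 was the single gene of the 8 to be lower by 1 or more on the log2 scale there, as 0.421% of all genes were.

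Bmp4, a ligand close in sequence to BMP2, is on the minus strand of chromosome 14 (46620250 to 46636745). Just 38 reads on soft, 27 on intermediate and 36 on stiff plates covered it. Its log2 ratio was -0.076 for stiff to soft (-0.78 to 0.62), -0.60 for intermediate to soft (-1.38 to 0.14) and 0.52 for stiff to intermediate (-0.22 to 1.31). All 3 intervals include 0, so no difference in Bmp4 was detectable at this depth.

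Inhba, on the plus strand of chromosome 13 (16186373 to 16206206), was the most abundant of the 9 by counts. It stood at 17082 normalized counts on soft, 21559.6 on intermediate and 22774 on stiff plates. Most of the difference lay in the first step, with a log2 ratio of 0.34 for intermediate to soft (0.31 to 0.36) against 0.079 for stiff to intermediate (0.052 to 0.11). The second step moved with the processing, to 0.043 when libraries were scaled by total reads and 0.17 once the length and GC trend was removed. The stiff to soft ratio of Inhba was 0.41 (0.39 to 0.44), below the threshold, and it was 0.54, past the threshold, once a trend with transcript length and GC content was removed. Macrophages can also express Inhba. In this comparison 12 of 12 macrophage markers had a ratio above 0 and 10 of them 0.5 or more, and their part in this difference was not tested.

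Fst is on the minus strand of chromosome 13 (114588731 to 114595521) and has 6 exons. Its level was 6496 normalized counts on soft, 6946 on intermediate and 3716 on stiff plates. The soft and intermediate libraries were close, with a log2 ratio of 0.097 (0.048 to 0.15), and the stiff library stood apart. The log2 ratio was -0.81 for stiff to soft (-0.86 to -0.75) and -0.90 for stiff to intermediate (-0.96 to -0.84).

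Grem1, on the minus strand of chromosome 2 (113576509 to 113589000), showed the same order of libraries as Fst and Bmp2. Soft plates gave 4280.2 normalized counts, intermediate plates 4704 and stiff plates 3172. The log2 ratio of stiff to intermediate was -0.57 (-0.63 to -0.50) and passed the threshold, and that of stiff to soft was -0.43 (-0.50 to -0.36) and did not. Between intermediate and soft the log2 ratio of Grem1 was 0.14 (0.077 to 0.20).

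Smad6, which blocks BMP receptor signalling inside the cell and is itself induced by it, is on the minus strand of chromosome 9 (63860341 to 63929793). Its level was similar on the 3 plates, at 3457 normalized counts on soft, 3293 on intermediate and 3226 on stiff plates. The stiff to soft log2 ratio of Smad6 was -0.10 (-0.17 to -0.029), and -0.22 after subtraction of the length and GC trend.

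Id1, on the plus strand of chromosome 2 (152566218 to 152579544), reached 5352 normalized counts on soft, 4931 on intermediate and 3670.3 on stiff plates. It was lower at each step of stiffness, by a log2 ratio of -0.12 for intermediate to soft (-0.17 to -0.063) and -0.43 for stiff to intermediate (-0.49 to -0.36). The stiff to soft ratio of Id1 was -0.54 (-0.61 to -0.48), past the threshold, and -0.45, short of it, after subtraction of the length and GC trend, under which its first step was -0.061.

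Id3, on the plus strand of chromosome 4 (135870808 to 135873066), followed the order of Id1 with smaller steps. Its level was 6935 on soft, 6595 on intermediate and 5658 on stiff plates. The stiff to soft log2 ratio was -0.29 (-0.35 to -0.24), short of the threshold, and -0.20 after subtraction of the length and GC trend. The first step of Id3, intermediate to soft, was -0.073, and -0.016 with that trend subtracted.

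Id2, on the minus strand of chromosome 12 (25143798 to 25147282), went the other way. Normalized counts were 1902 on soft, 2002 on intermediate and 2354 on stiff plates, a stiff to soft log2 ratio of 0.31 (0.22 to 0.40), also short of the threshold. The soft and intermediate values of Id2 did not differ beyond counting error (0.074, with an interval from -0.016 to 0.16). Id1, Id2 and Id3 together summed to 14189.6 normalized counts on soft, 13529 on intermediate and 11682 on stiff plates. Id2 made up 13.4% of their reads in the soft (exact 95% interval 12.8 to 14.0), 14.8% in the intermediate (14.2 to 15.4) and 20.1% in the stiff library (19.4 to 20.9).

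**Figure D2:**
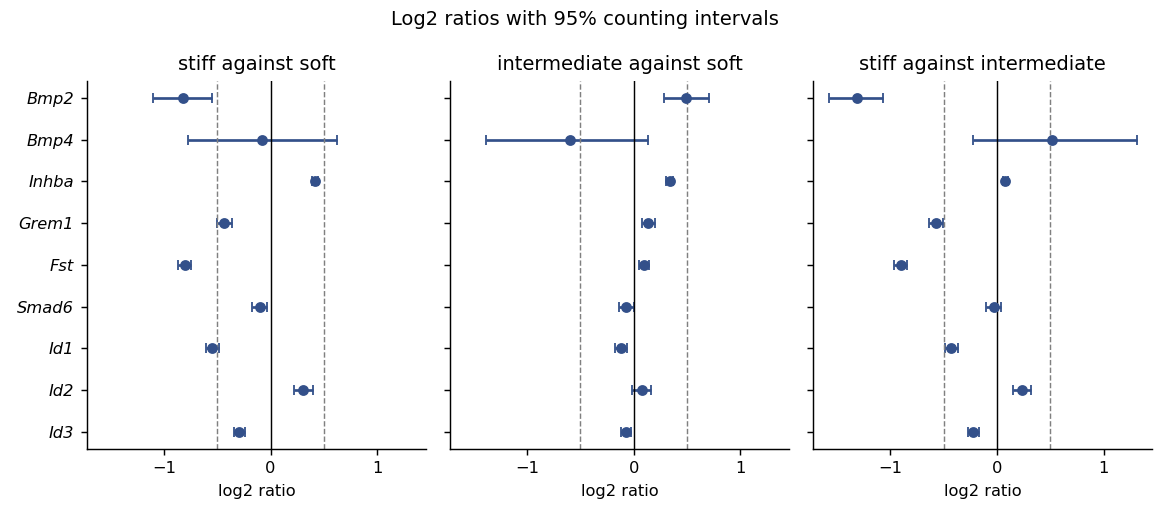
Log2 ratios (horizontal axes) of the 9 genes in the 3 comparisons, with exact 95% counting intervals as bars and dashed lines at 0.5 in either direction. In the stiff against soft panel Bmp2, Fst and Id1 lie left of the lower line, and no gene lies right of the upper line.

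Annotated genes that overlap the 9 had few reads of their own. Where an annotated gene of the table overlaps one of the 9, it is on the opposite strand, and the most reads any of them had was 8, for 4933412O06Rik at the Inhba locus. Whether strand was used in the counting was not given in the sources used here. The part of overlap in the counts of the 9 genes was not tested.

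Levels of different genes were compared as RPKM values, which divide reads by the length of the canonical transcript and by the depth of the library. On this scale the soft library had the order Id3 at 208, Id1 at 178, Fst at 132, Inhba at 109, Smad6 at 43.3, Grem1 at 39.4, Id2 at 29.6, Bmp2 at 3.37 and Bmp4 at 0.534. In the stiff library Inhba, at 139, stood above Id1, at 117, and below Id3, at 163, and Fst, at 72.5, stood below all of these. Id2, at 35.2, stood above Grem1, at 28.1, in the stiff library. With the union of all annotated exons as the length, Fst dropped to 52.7 in the soft library, below Inhba at 91.9. In the stiff library Inhba, at 118, then stood above Id3, at 116, and Id2, at 24.9, below Grem1, at 28.1, so the order of these genes depends on the length used. Under either length the antagonist genes Grem1 and Fst stood above the ligand genes Bmp2 and Bmp4 in each library, also where Bmp2 peaked, with Grem1 at 42.7 and Bmp2 at 4.68 on the intermediate plate. The ligand gene Inhba, in contrast, stood above Grem1 in each library under either length. It stood above Fst in each library with the union length, and in the stiff library alone with the canonical length.

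Ratios of reads between 2 genes of the same library do not depend on how libraries are scaled, and were computed for 5 pairs chosen with the values known. Inhba had 2.63 reads per read of Fst in the soft library (exact 95% interval 2.55 to 2.71), 3.10 in the intermediate (3.02 to 3.19) and 6.13 in the stiff library (5.92 to 6.35). The ratio of Inhba to Fst transcripts was therefore highest on the stiff plate, by 1.22 on the log2 scale relative to the soft plate (1.15 to 1.29). This pair leaves out the other activin subunit gene Inhbb, whose stiff to soft log2 ratio was -0.69. It also leaves out Fstl3, whose product binds activins too, at 0.40. Inhba per Inhbb, the genes of the beta A and beta B subunits of activins, was 1.96, 2.40 and 4.20 reads per read in the soft, intermediate and stiff library. Grem1 per Bmp2 was 13.6 on soft, 10.6 on intermediate and 17.9 on stiff plates, with the lowest ratio where Bmp2 peaked. Within the Id genes, Id1 per Id2 was 2.81, 2.46 and 1.56 and Id3 per Id2 was 3.65, 3.29 and 2.40, in the same order of libraries.

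**Figure D3:**
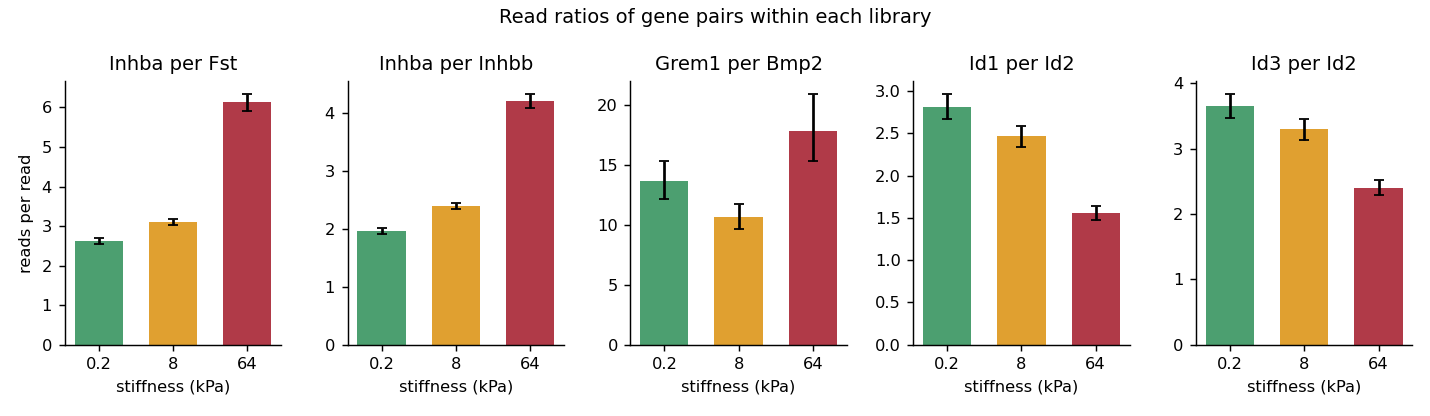
Reads of the first gene per read of the second (vertical axes, starting at 0) in each library, by plate stiffness in kPa, with exact 95% counting intervals. Inhba per Fst was 2.63 at 0.2 kPa and 6.13 at 64 kPa, and Id1 per Id2 was 2.81 and 1.56.

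Beyond the 9 genes, lists of the pathway by role held 49 further genes that met the minimum mean. Of these, 6 were higher and 2 lower in the stiff than in the soft library, with a median log2 ratio of 0.0094, beside 11.8% higher, 3.77% lower and a median of 0.0049 over all genes. These shares are near the background. Some genes are in 2 of the lists.

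Among BMP ligands other than Bmp2, 5 of the listed genes could be counted, of which 2 were higher and 1 lower on stiff plates, beside 11.8% and 3.77% of all genes. With 5 genes, nothing is read from this count. Bmp6 had 60.5, 85.8 and 119 normalized counts (soft, intermediate, stiff), a stiff to soft log2 ratio of 0.96 (0.51 to 1.45). Gdf11, an activin-like ligand, had 304, 379 and 546, a ratio of 0.84 (0.63 to 1.05). Gdf10 was lower, at 99.4, 60.3 and 53.3, a ratio of -0.89 (-1.41 to -0.40). Bmp5 was the most abundant of these ligands by counts, at 1502, 1143 and 1139, and its ratio of -0.40 was short of the threshold.

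Inhbb was the other activin subunit gene with a mean of at least 50. Its counts were 8736 on soft, 9002 on intermediate and 5419.8 on stiff plates, a stiff to soft log2 ratio of -0.69 (-0.74 to -0.64). Its libraries had the order of Fst, not of Inhba.

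Of 11 receptors and co-receptors, 2 were higher on stiff plates and none lower, where 11.8% and 3.77% of all genes were, a count near the background. Their median stiff to soft log2 ratio was 0.29, beside 0.0049 over all genes. The higher genes were Eng, the co-receptor endoglin, at 1691, 1976 and 3062 normalized counts (log2 ratio 0.86, interval 0.77 to 0.94), and Acvrl1, the type I receptor ALK1, at 1108, 1243 and 1618 (0.55, interval 0.43 to 0.66). Macrophages and endothelial cells can also express Eng. Of the 12 macrophage markers 10 had a stiff to soft ratio of 0.5 or more, the 8 endothelial markers summed to 61.5, 83.0 and 89.2 normalized counts, and the part of these cells in the result was not tested. The lowest ratios were those of Bmpr1a, a type I BMP receptor, at -0.30, and Acvr2a, a type II activin receptor, at -0.015.

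The extracellular antagonists and modulators other than Grem1 and Fst included 12 countable genes, of which 2 were higher and none lower on stiff plates, also near the shares of all genes (11.8% and 3.77%). Kcp, at 62.5, 91.4 and 125 normalized counts (soft, intermediate, stiff), had a log2 ratio of 0.99 (0.55 to 1.47). Crim1, a membrane protein that binds BMPs, had 1378, 1322 and 2441 and a ratio of 0.82 (0.73 to 0.92). The lowest ratios were -0.40 for Chrdl1 and -0.34 for Nbl1, both BMP-binding proteins, and neither passed the threshold. Fstl3, which binds activins as follistatin does, had a stiff to soft ratio of 0.40.

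None of the 10 SMAD and SMAD ubiquitin ligase genes passed the threshold in any of the 3 comparisons, where 15.6% (stiff to soft), 4.6% (intermediate to soft) and 8.84% (stiff to intermediate) of all genes did. At these shares few of 10 genes would pass, so the count does not set the list apart. Their stiff to soft ratios ran from -0.31 for Smad5, a BMP signal transducer, to 0.37 for Smurf2, a ubiquitin ligase. Smad2 stood at -0.10 and Smurf1 at 0.28. The BMP-SMAD target list held 14 countable genes, of which Id1 alone passed the threshold between stiff and soft, being lower, where 15.6% of all genes passed in either direction and 3.77% were lower. The 10 targets other than Id1, Id2, Id3 and Smad6 had a median log2 ratio of -0.094, beside 0.0049 over all genes. Among these 10, the highest were Atoh8 at 0.36 and Id4 at 0.20, and the lowest Tmem100 at -0.39 and Msx1 at -0.37. Between intermediate and soft 1 of the 10 passed, Tmem100 at -0.51, where 4.6% of all genes did. Id4 was at -0.43 there. Between stiff and intermediate 1 of the 10 passed, Id4 at 0.64 (0.48 to 0.79), where 8.84% of all genes did. The E protein genes Tcf3, Tcf4 and Tcf12, whose products Id proteins bind, had ratios of 0.20, -0.17 and -0.0029.

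**Figure D4:**
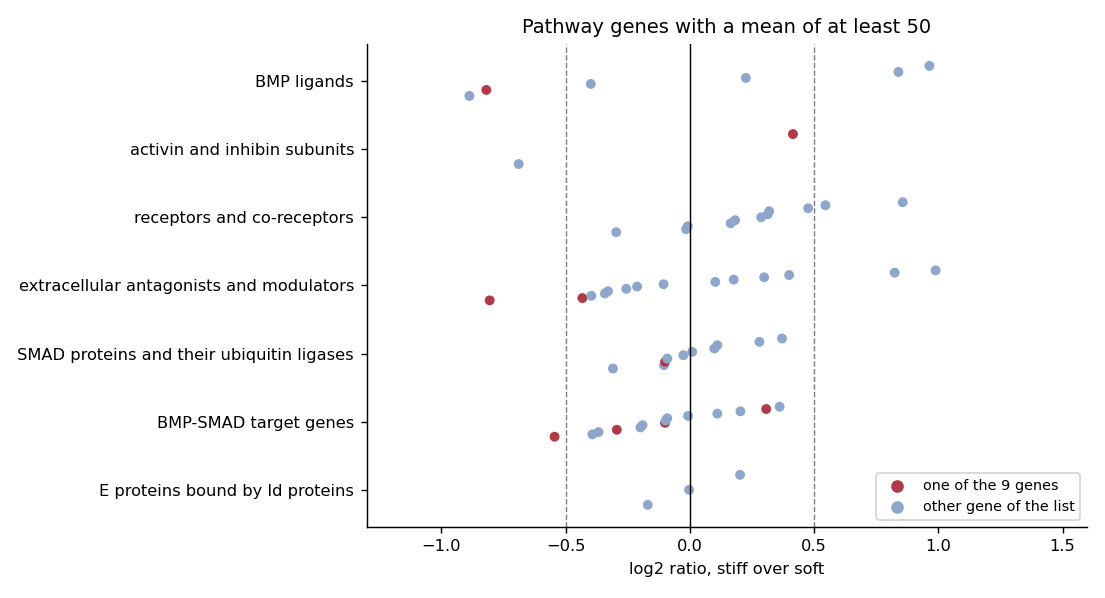
Log2 ratio of stiff to soft (horizontal axis) for pathway genes above the minimum mean, by role, with 8 of the 9 genes in red (Bmp4 did not reach that mean), others in blue, and dashed lines at 0.5 in either direction; vertical offsets within a row only separate points. Eng, Acvrl1, Kcp, Crim1, Bmp6 and Gdf11 lie right of the upper line, and Fst, Bmp2, Gdf10, Inhbb and Id1 lie left of the lower one.

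Genes with a like pattern were sought for the lowest and the highest of the 8 genes in the stiff to soft comparison, as the smallest distance in the plane of the 2 successive log2 steps, over 3 libraries and 10675 genes whose mean reached 100. For Bmp2 they were Isg15, Ifit3 and Zfp677, at distances of 0.080, 0.11 and 0.12. Isg15 stood at 626 normalized counts on soft, 913 on intermediate and 384 on stiff plates. For Inhba the nearest genes were Kif21a, Fbxo10 and Idua, at distances of 0.0081, 0.0082 and 0.0089. With 3 libraries such likeness rests on 2 differences per gene.

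**Figure D5:**
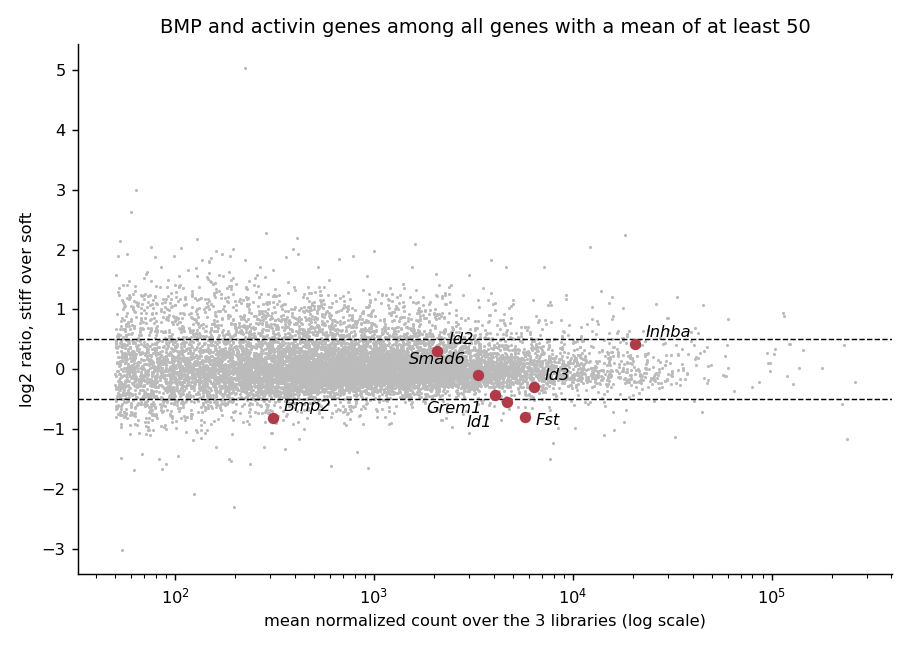
Log2 ratio of stiff to soft against the mean normalized count (log scale) for 11873 genes in grey and 8 of the 9 genes in red, with dashed lines at 0.5 in either direction. Bmp2 lies at -0.82, Fst at -0.81 and Id1 at -0.54, below the lower line, and Inhba, the most abundant of the 8, at 0.41.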

How the data were processed

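RNA of 3 cultures was sequenced from stranded poly(A)-selected libraries, per the labels' protocols. The submitters' processing notes name bcl2fastq 2.20.0, STAR 2.7.9a, featureCounts of Subread 2.0.1, DESeq2 1.34.0 and the build GRCm39. The deposited signal is a normalized count: the authors scaled the reads of each gene by the size factor of the library, as the file names and values show. The 3 deposited files were identical, and columns were assigned by sample titles. All positive values (100%) were whole multiples of the smallest, within 0.01, so whole reads were recovered, but with 1 library per level no count test could be run.

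Log2 ratios used a pseudocount of 1, which understates the change of low genes. Alternatives were other pseudocounts, filters, thresholds and scalings (edgeR 4.0.16 for TMM), and subtraction of the median ratio of the 200 genes nearest in ranks of transcript length and GC content, over genes with a mean of at least 10. Gene models were matched by symbol to GENCODE on GRCm39, the release used for counting not being given in the sources used here. Of 11873 genes, 98.0% had a length and GC content.

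The genes named were the 9 members, up to 2 highest and 2 lowest stiff to soft ratios of each pathway list, Efhd1, and the 3 genes nearest in pattern to 2 members. Fstl3, 4933412O06Rik and marker genes were named beyond this rule with values seen. Members and lists were chosen with earlier results of these data known. Counting was tested on simulated data. Python 3.11.15, pandas 2.3.3, scipy 1.17.1 and scikit-learn 1.9.0 were used.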

Additional observations from a re-analysis of the deposited data

How the results depend on the processing

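No paired analysis was possible because each stiffness level had 1 library, and for the same reason leaving out a replicate was not run. No log2 ratio of the 9 genes changed sign under 2 other pseudocounts, 4 other scalings or subtraction of the length and GC trend. Of 189 such values over 27 ratios, 169 stayed inside the counting interval of the reported ratio, and of the 20 outside 11 came from the trend. With the trend subtracted, 3 of 8 genes still passed between stiff and soft, with Inhba (0.54) in place of Id1 (-0.45). At a threshold of 1, 0 of the 8 passed between stiff and soft, where 428 of 11873 genes did, a count near the background. Between stiff and intermediate 1 of the 8 passed, where 148 of 11873 genes did. Unfiltered, or at a minimum mean of 10, Bmp4 entered, whose intervals include 0. Then 1 of 9 genes passed between intermediate and soft, where 7520 of 56833 genes (unfiltered) or 1366 of 14291 (minimum mean of 10) did. Between stiff and intermediate 4 of 9 in place of 3 of 8 passed, 1 of them higher. There 8136 of 56833 or 2007 of 14291 genes passed.

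Counts over all genes moved with the filter and threshold by construction, since these change the genes tested or the size asked for. Unfiltered, 9063 genes passed for stiff to soft, 7520 for intermediate to soft and 8136 for stiff to intermediate. A minimum mean of 10 gave 2907, 1366 and 2007 genes in this order, a minimum of 200 gave 1218, 270 and 612, and a threshold of 1 gave 428, 20 and 148. With the trend subtracted, 348 genes passed between intermediate and soft, where 546 did as reported, and the cause was not tested. Among the genes past the threshold between stiff and soft, scaling by the upper quartile moved the share that were higher from 75.8% to 65.4%. Depth limits statements on Bmp4 and Efhd1.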
